A study of Rattus norvegicus with 6 samples.

Results

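Plasma cells and polymeric antibody transport were followed through 6 genes, Cd79a, Cd79b, Pou2af1, Mzb1, Jchain and Pigr, chosen by name because of their known roles. Earlier results of these data were known when these genes were chosen. All 6 are among the 14405 protein-coding genes listed in the deposited tables of RNA sequencing of rat dorsal tongue epithelium, which the series title and design place at the taste buds of the circumvallate papilla. There were 3 control libraries from rats labelled as free of periodontitis and 3 libraries from rats labelled with chronic periodontitis, a lasting inflammation of the tissue that anchors the teeth. The labels used here give no strain, age, sex or genotype and do not say how periodontitis was brought about. They also do not say whether each library came from a separate animal, so p-values reflect only variation among these 6 libraries, part of which may be technical. Values are FPKM, mapped fragments scaled by transcript length and library size, so levels can be set side by side between genes.

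Secretory antibody is made by plasma cells that lie under a mucosa or around a gland. Cd79a and Cd79b form the signalling part of the B cell antigen receptor. Pou2af1 is a coactivator that works with octamer-binding factors in B cells and plasma cells. Mzb1 is a chaperone of the endoplasmic reticulum that helps antibody assembly, and Jchain links IgA or IgM into polymers. Pigr, the polymeric immunoglobulin receptor, is made by epithelial and gland cells, binds the polymers at the basal side and carries them to the surface or into the gland duct.

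None of the 6 genes passed the test between groups, and the libraries of 1 group differed from each other more than the groups did. Control 1 had the highest level of 5 of the 6 genes, all but Pigr, and periodontitis 1 had the lowest level of 4 of them, Pou2af1, Mzb1, Jchain and Pigr. Jchain and Pigr stood among the abundant genes of the tissue, with mean values over the 6 libraries of 205.6 and 233.6 FPKM, above 97.8% and 98.1% of all listed genes. Mzb1 had a mean of 5.95 FPKM, and Cd79a, Pou2af1 and Cd79b had 2.34, 1.97 and 1.81 FPKM, above 42.4%, 21.2%, 18.2% and 16.8% of listed genes in that order.

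Facts of the whole tables bear on these values. FPKM summed to between 611713 and 660619 per library, and 71 to 218 genes were listed at 0, with the most in periodontitis 1. Lipf, Lcn1, Vegp2 and Bpifb1, 4 secretory genes of the von Ebner glands that open at the papilla, took 24.5% to 29.5% of the sum in controls and 15.2%, 23.5% and 40.6% in periodontitis 1 to 3. Marker lists of cornified epithelium and of skeletal muscle (932 to 4719 FPKM in sum) were both present, so tissue other than epithelium was in the libraries. The cornified sum ran from 7993 FPKM in periodontitis 3 to 25210 FPKM in periodontitis 1. All 10 tested muscle genes had lower means in periodontitis, 8 of them with no overlap between groups (57.4% and 3.59% of all tested genes), and the part of muscle content in other values was not tested. In such bulk tissue, fewer cells of a type and less RNA per cell cannot be told apart.

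**Figure D1:**
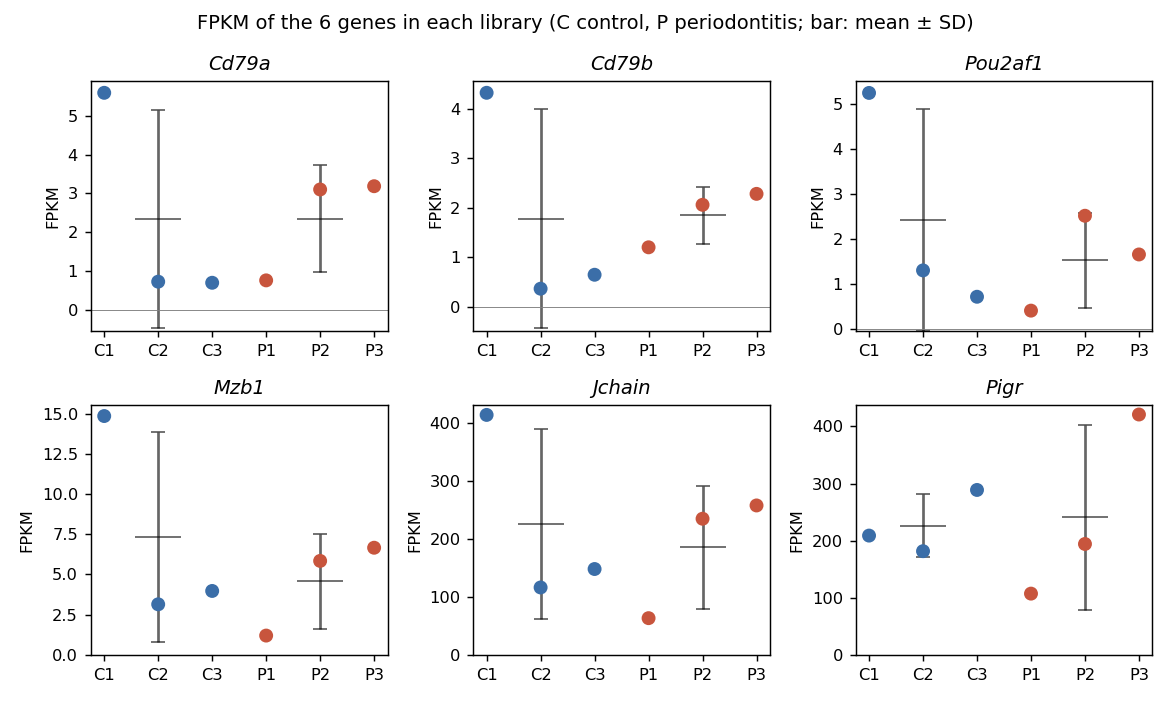
FPKM (vertical axes, linear) of each gene in the 3 control (C1 to C3, blue) and 3 periodontitis libraries (P1 to P3, red), with the mean and SD of each group as black bars, which reach below 0 where the SD exceeds the mean. C1 stands above the other controls for all genes but Pigr, at 5.59 FPKM for Cd79a and 413.8 FPKM for Jchain.

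Cd79a lies on chromosome 1 (81763614 to 81767980 in the tables, whose rat build no label or header names). It had 5.59, 0.727 and 0.698 FPKM in controls 1 to 3 and 0.760, 3.10 and 3.19 FPKM in periodontitis 1 to 3. Control 1 was the highest library and the other controls were the lowest, so the periodontitis libraries lay between the controls. The means were 2.34 ± 2.82 and 2.35 ± 1.38 FPKM (SD, n = 3 each). The log2 fold change, taken here and below as the periodontitis mean of log2(FPKM + 1) less the control mean, was 0.21 ± 0.59 (SE; 95% interval -1.16 to 1.59; limma adjusted p = 1.0).

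Cd79b, its partner on chromosome 10 (94497448 to 94500591), had 4.32, 0.364 and 0.645 FPKM in controls 1 to 3. In periodontitis 1 to 3 it had 1.20, 2.06 and 2.28 FPKM. As for Cd79a, control 1 was above all periodontitis libraries and controls 2 and 3 were below all of them. The log2 fold change was 0.29 ± 0.50 (SE; 95% interval -0.87 to 1.47; limma adjusted p = 1.0). The ratio of Cd79a to Cd79b ran from 0.634 in periodontitis 1 to 1.999 in control 2, with overlapping groups.

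Pou2af1 on chromosome 8 (55603968 to 55631446) had 5.24, 1.29 and 0.709 FPKM in controls 1 to 3. The periodontitis libraries had 0.401, 2.51 and 1.65 FPKM. Periodontitis 2 and 3 were above controls 2 and 3, and periodontitis 1 was the lowest library. The log2 fold change was -0.30 ± 0.53 (SE; 95% interval -1.55 to 0.94; limma adjusted p = 1.0).

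Mzb1 on chromosome 18 (28436548 to 28438654) had 14.9, 3.15 and 3.98 FPKM in controls 1 to 3. It had 1.20, 5.84 and 6.66 FPKM in periodontitis 1 to 3, a 12.4-fold range between the highest and the lowest library. The libraries followed the same order as for Jchain, with control 1 first, then periodontitis 3 and 2, then controls 3 and 2, and periodontitis 1 last. The log2 fold change was -0.50 ± 0.63 (SE; 95% interval -1.97 to 0.97; limma adjusted p = 1.0).

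Jchain on chromosome 14 (21177237 to 21183542) had 413.8, 116.3 and 148.1 FPKM in controls 1 to 3. In periodontitis 1 to 3 it had 63.4, 234.8 and 257.7 FPKM. The means were 226.0 ± 163.4 and 185.3 ± 106.2 FPKM (SD, n = 3 each), a difference smaller than either SD. The log2 fold change was -0.29 ± 0.65 (SE; 95% interval -1.80 to 1.21; limma adjusted p = 1.0).

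Pigr on chromosome 13 (47572219 to 47591699) had 208.9, 181.6 and 288.8 FPKM in controls 1 to 3. It had 107.3, 194.2 and 420.9 FPKM in periodontitis 1 to 3, so the highest and the lowest library were both from periodontitis and all controls lay between them. The means were 226.4 ± 55.7 and 240.8 ± 161.9 FPKM (SD, n = 3 each). The mean was higher in periodontitis on the FPKM scale, and lower on the log2 scale, where the fold change was -0.11 ± 0.47 (SE; 95% interval -1.20 to 0.99; limma adjusted p = 1.0).

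Sequence just before the transcription start was at hand for 3 of the 6 genes, in RefSeq's promoter table of the rat build GRCr8. The 150 bases before each annotated start are shown because the octamer is the element at which Pou2af1 acts, and because an E-box is a known element of the Pigr promoter bound by upstream stimulatory factors such as Usf1. Capitals mark matches, on either strand, to the octamer ATGCAAAT, the E-box CACGTG or the core GAGGAA of the B cell and myeloid factor PU.1.
Pigr, chr13:44851032-44851181, plus strand: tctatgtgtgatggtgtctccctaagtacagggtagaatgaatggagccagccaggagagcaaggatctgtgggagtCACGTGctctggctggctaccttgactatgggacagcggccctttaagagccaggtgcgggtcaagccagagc
Jchain, chr14:19822826-19822975, plus strand: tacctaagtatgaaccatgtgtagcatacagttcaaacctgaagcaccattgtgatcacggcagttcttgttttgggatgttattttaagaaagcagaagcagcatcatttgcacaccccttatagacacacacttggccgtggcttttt
Cd79a, chr1:89621310-89621459, plus strand: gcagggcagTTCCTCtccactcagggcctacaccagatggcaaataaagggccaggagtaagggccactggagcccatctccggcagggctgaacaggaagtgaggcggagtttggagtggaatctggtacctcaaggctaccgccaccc
Pigr held the E-box, whose first base is at position -73 from the start, and Cd79a held the PU.1 core at position -141. Among the 33469 promoters of the table, windows of the same length held the octamer in 0.899%, the E-box in 3.74% and the PU.1 core in 14.5%. No octamer match was found in these 3 windows, which says only that those letters are not there. Usf1 itself, named for that site and not by the rule for named genes, had 26.01, 28.3 and 26.8 FPKM in controls and 24.0, 31.1 and 22.2 FPKM in periodontitis 1 to 3, with a log2 fold change of -0.08 ± 0.18 (SE, limma adjusted p = 1.0).

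The comparison of chronic periodontitis with control asked whether these genes differed by disease. All 6 passed the filter of at least 1 FPKM in at least 3 libraries, Cd79a with 1 control and 2 periodontitis libraries at that level. With limma, 0 of the 6 had an adjusted p under 0.05, against 0.0% of all 13154 tested genes, and 0 of the 6 had an unadjusted p under 0.05, against 2.11% of all (0.38% higher and 1.73% lower in periodontitis). In 0 of the 6 were the groups without overlap, against 5.56% of all tested genes. Cd79a and Cd79b had higher log2 means in periodontitis and the other 4 genes had lower ones, while 42.6% of all tested genes had higher means.

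**Figure D2:**
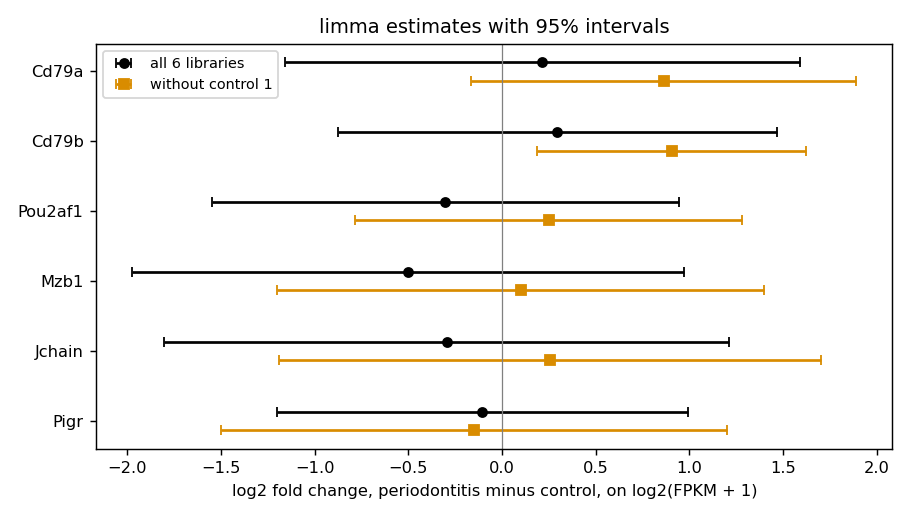
limma log2 fold change (horizontal axis, from log2(FPKM + 1), with positive values higher in periodontitis) with its 95% interval for each gene, from all 6 libraries (black circles) and without control 1 (orange squares). All 6 intervals from the 6 libraries span 0, and Jchain, Mzb1 and Pou2af1 change sign when control 1 is left out.

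The direction of 3 of these genes depended on control 1, and on periodontitis 1 as well. Its level over the mean of controls 2 and 3 was 8.56-fold for Cd79b, 7.85-fold for Cd79a, 5.23-fold for Pou2af1, 4.17-fold for Mzb1, 3.13-fold for Jchain and 0.888-fold for Pigr. With 1 FPKM added to both sides, the first 5 genes were 3.11-fold to 3.85-fold higher, whereas 0.707% of tested genes were at least 2-fold higher. Without control 1 the log2 fold change was 0.25 for Jchain, 0.10 for Mzb1, 0.25 for Pou2af1 and -0.15 for Pigr.

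The antigen receptor genes had the largest log2 fold changes of the 6 without control 1. Without control 1, Cd79b had a log2 fold change of 0.91 ± 0.30 (SE; 95% interval 0.19 to 1.62; limma unadjusted p = 0.0207, adjusted p = 1.0). Cd79a had 0.86 ± 0.43 (SE; 95% interval -0.16 to 1.89; limma adjusted p = 1.0). All 3 periodontitis libraries then lay above controls 2 and 3 for both genes, as they did for 3.68% of tested genes, while 5.85% lay below. That order was already present with all 6 libraries, so leaving out control 1, the highest library for both, fixed the separation in advance. These fits show how much control 1 weighs and are no support for a rise in periodontitis. Without control 1, 5 of the 6 genes had higher means in periodontitis (45.4% of all tested), 1 of the 6, Cd79b, had an unadjusted p under 0.05 (1.13% of all, 0.258% higher) and 0 of the 6 had an adjusted p under 0.05 (0.0076% of all). Leaving out periodontitis 1 also turned the sign of 4 genes, with log2 fold changes of 0.35 for Jchain, 0.07 for Mzb1, 0.07 for Pou2af1 and 0.36 for Pigr. Pigr was also at 0.08 without control 3, Cd79a at -0.10 without control 2 and -0.12 without control 3, and Cd79b at -0.08 without control 2.

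The spread among controls was unusual in size for these genes. On the log2 scale the SD of the 3 controls was 0.97 to 1.12 for the 5 B cell and plasma cell genes, and at most 1.14% of tested genes had a larger one than any of them. The median over all tested genes was 0.17. Each of these 5 genes was highest in control 1. Among the periodontitis libraries their SD ran from 0.31 for Cd79b to 1.12 for Jchain, beside a median of 0.34. A larger periodontitis SD was found in 56.8% of tested genes for Cd79b, 14.0% for Pou2af1, 12.1% for Cd79a, 3.87% for Mzb1 and 2.35% for Jchain. Pigr had a control SD of 0.34, which 14.9% of tested genes exceeded, and a periodontitis SD of 0.98, which 4.04% exceeded. The difference between groups made up 0.764% of the variation of Pigr over the 6 libraries and 1.92% to 8.25% of that of the other 5 genes, beside a median of 6.75% over all tested genes.

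**Figure D3:**
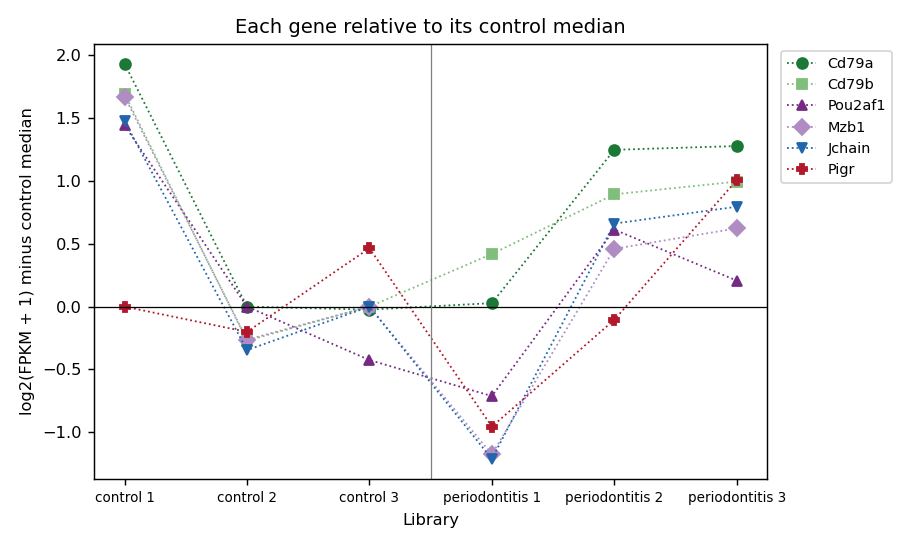
log2(FPKM + 1) of each gene minus its control median (vertical axis) in each library (horizontal axis). Dotted lines join the values of 1 gene for reading only, as libraries have no order. The 5 B cell and plasma cell genes stand between 1.44 and 1.93 in control 1, where Pigr is at 0, and Jchain, Mzb1 and Pigr stand between -1.21 and -0.95 in periodontitis 1.

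Ratios between genes within a library showed which levels went together. Jchain to Mzb1 was 27.9, 37.0 and 37.2 in controls 1 to 3 and 52.7, 40.2 and 38.7 in periodontitis 1 to 3. That ratio moved 1.89-fold while each gene moved 6.53-fold and 12.4-fold. It was higher in all 3 periodontitis libraries than in all controls, as were, in either direction, 0.223% of the ratios of Jchain to each other tested gene. That share is no like background, because Jchain itself overlapped between groups and its ratio to most genes keeps that spread. Of single tested genes, 5.56% had groups without overlap. An exact permutation test of 3 against 3 cannot give a two-sided p under 0.1.

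Ratios of Mzb1 and of Pou2af1 to Cd79a did not overlap between the groups, and that of Jchain to Cd79a did. Mzb1 to Cd79a was 2.66, 4.33 and 5.70 in controls and 1.58, 1.88 and 2.09 in periodontitis 1 to 3. Pou2af1 to Cd79a was 0.937, 1.78 and 1.02 in controls and 0.527, 0.809 and 0.518 in periodontitis 1 to 3. Both were lower in all 3 periodontitis libraries, and 0.215% of ratios of Cd79a to each other tested gene had groups without overlap. This share is likewise no like background, because Cd79a itself overlapped between groups. Jchain to Cd79a was 74.0, 160.0 and 212.1 in controls and 83.4, 75.7 and 80.9 in periodontitis, so control 1 lay below the periodontitis libraries there and the groups overlapped. These were 3 of 16 ratios computed whose groups did not overlap (Jchain to Mzb1, and Mzb1 and Pou2af1 to Cd79a), and they were chosen after the values were seen. Cd79a was at 0.727, 0.698 and 0.760 FPKM in controls 2 and 3 and periodontitis 1. Pou2af1 was at 0.709 and 0.401 FPKM in control 3 and periodontitis 1. Ratios of values this low, taken with nothing added, are uncertain.

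Pigr kept closer to the gland genes than to Jchain over the libraries. As a percentage of the summed FPKM of the 4 gland genes, Pigr was 0.129%, 0.113% and 0.156% in controls 1 to 3 and 0.112%, 0.135% and 0.157% in periodontitis 1 to 3. This share moved 1.40-fold while Pigr moved 3.92-fold and the gland sum 2.81-fold. The ratio of Pigr to Xbp1, a transcription factor of secretory cells including plasma cells and gland cells, ran from 0.844 to 1.28. In contrast, Jchain to Pigr was 1.98 in control 1, 1.21 in periodontitis 2 and 0.513 to 0.640 in the other 4 libraries. The part of gland content in the level of Pigr was not tested.

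**Figure D4:**
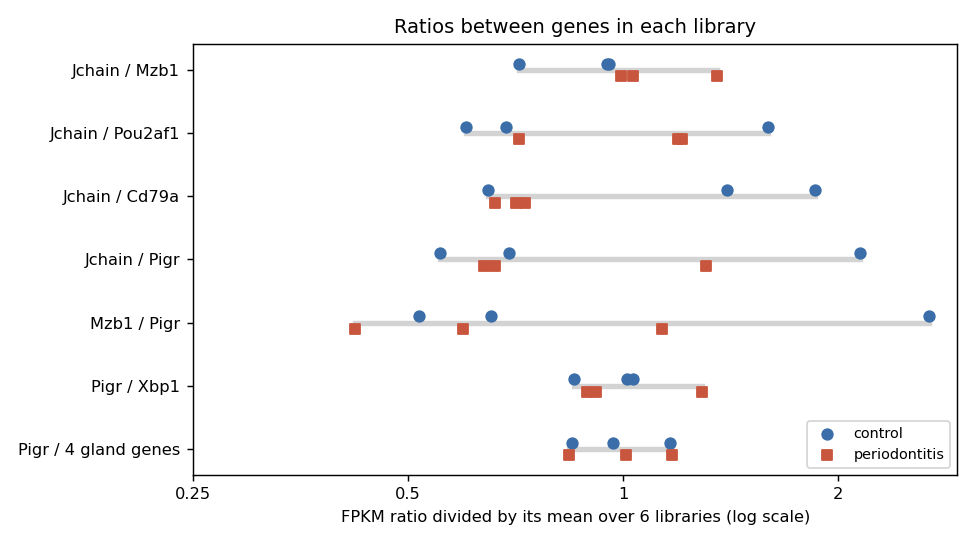
FPKM ratio of gene pairs in each library divided by its mean over the 6 libraries (horizontal axis, log scale), with controls as blue circles and periodontitis as red squares. Pigr relative to the gland genes spans 1.40-fold and Jchain relative to Pigr spans 3.86-fold, with control 1 as the right-most point of the latter.

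Antibody genes themselves were placed beside Jchain. The RefSeq gene table of GRCr8 holds 146 variable segments and 4 constant regions of chromosome 6 between Tmem121 and Zfp386, where the heavy chain locus lies, and the deposited tables list 69 rows between the same neighbours (138054662 to 143702033), most under clone-based names. Summed FPKM of those rows was 1104, 323.3 and 212.0 in controls 1 to 3 and 182.3, 898.0 and 721.0 in periodontitis 1 to 3. As for Jchain, control 1 was highest, periodontitis 2 and 3 came next and periodontitis 1 was lowest. Reads of near-identical copies can be divided between these rows, and some of the interval's genes are not antibody genes, so single rows are uncertain.

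Igh-6, listed at 138092131 to 138093643, had 234.8, 110.5 and 26.7 FPKM in controls 1 to 3. It had 29.7, 328.6 and 315.6 FPKM in periodontitis 1 to 3, and its log2 fold change was 0.71 ± 1.07 (SE, limma adjusted p = 1.0). Ighg, an immunoglobulin gamma heavy chain gene at 139140679 to 139142218, had 176.9, 16.3 and 2.01 FPKM in controls and 14.1, 12.3 and 18.6 FPKM in periodontitis. Control 1 was thus the only library with Ighg above 20 FPKM among those measured. The row ENSRNOG00000034190, with no gene name and a span (138054662 to 138662511) that covers Igh-6, had 105.9, 25.9 and 40.3 FPKM in controls and 18.5, 53.7 and 42.5 FPKM in periodontitis. Jchain stayed at 3.42 to 6.07 times the level of that row, whereas Jchain to Igh-6 ran from 0.714 to 5.54.

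The light chain row LOC100361706 on chromosome 11 (86092468 to 86092779), which RefSeq names Iglc1 by gene identifier, had 326.1, 75.9 and 76.4 FPKM in controls. It had 87.1, 45.1 and 75.5 FPKM in periodontitis 1 to 3, with a log2 fold change of -0.88 ± 0.57 (SE, limma adjusted p = 1.0). Control 1 stood alone here as it did for Ighg. Of the 69 heavy chain rows, 39 passed the filter, 0 had an adjusted p under 0.05 and 11 had an unadjusted p under 0.05, all lower, beside 1.73% of all tested genes lower at that level. In 8 of the 39 (20.5%) all periodontitis libraries lay below all controls, beside 3.59% of all tested genes, and 1 of the 39 passed the filter through the controls alone. Others of the 8, AABR07065815.2, AABR07065778.3, AABR07065714.1 and AABR07065789.1, reached 1 FPKM in every control and in only 1 periodontitis library. Such rows entered largely through their control levels. The counts and medians of the 39 are therefore description and no support for a decrease. The median log2 fold change of the 39 was -0.45, and -0.31 without control 1, beside -0.03 and -0.02 over all tested genes.

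The other rows named for their high mean differed from Jchain. AABR07065823.2 (142903147 to 142903440) had 27.2, 7.28 and 4.85 FPKM in controls and 7.81, 437.7 and 187.4 FPKM in periodontitis 1 to 3, and in periodontitis 2 it was the most abundant row of the interval (log2 fold change 3.02 ± 1.36 SE, limma adjusted p = 1.0). AABR07065750.2 (140101861 to 140102325) had 49.6, 21.3 and 11.4 FPKM in controls 1 to 3, and the periodontitis libraries had 3.96, 1.77 and 4.18 FPKM (log2 fold change -2.54 ± 0.50 SE, limma unadjusted p = 0.00119, adjusted p = 1.0). The groups overlapped in the first and not in the second.

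**Figure D5:**
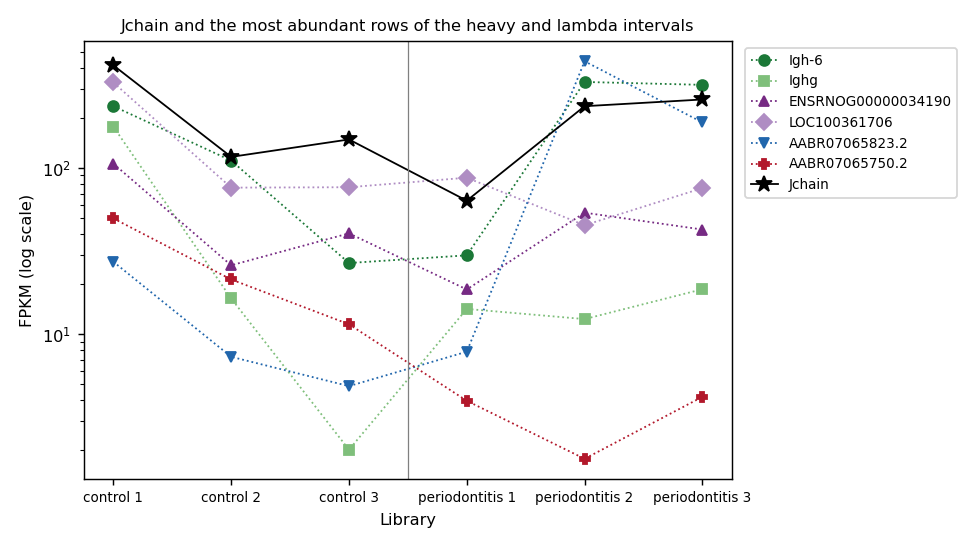
FPKM (vertical axis, log scale) of Jchain (black stars) and of 6 rows of the heavy chain and lambda chain intervals in each library (horizontal axis). Lines join values of 1 row for reading only. Ighg falls from 176.9 FPKM in control 1 to at most 18.6 FPKM elsewhere, and AABR07065823.2 reaches 437.7 FPKM in periodontitis 2.

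Other genes of plasma cells also showed no call. Of 22 on the plasma cell list, 20 were listed and 17 tested, 4 with a higher and 13 with a lower mean in periodontitis (median log2 fold change -0.13), and 0 had an unadjusted limma p under 0.05. Control 1 was the highest library in 2 of the 17, against 10.7% of all tested genes. Xbp1 had 208.7, 215.2 and 282.5 FPKM in controls and 118.4, 220.5 and 329.9 FPKM in periodontitis 1 to 3. Sdc1, the plasma cell surface proteoglycan that epithelium also makes, had 143.1, 140.5 and 120.1 FPKM in controls and 204.8, 162.6 and 83.6 FPKM in periodontitis. Prdm1, the plasma cell factor Blimp-1 that epithelium also uses, had 13.95, 13.93 and 11.4 FPKM in controls and 23.3, 18.2 and 5.98 FPKM in periodontitis.

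Sdc1 and Prdm1 thus had their highest level in periodontitis 1, where Jchain and Mzb1 were lowest. The smallest p of the list belonged to Pdia4 (log2 fold change -0.30), Slamf7 (-0.39), Sec11c (-0.23) and Derl3 (-0.24), of which Slamf7 is a receptor of plasma cells and other lymphocytes and the others serve protein folding and secretion in many cells. Irf4 and Tnfrsf17, the receptor BCMA, are more restricted to the lineage and were below the filter. Irf4 had 2.93, 0.888 and 0.904 FPKM in controls and 0.227, 1.25 and 0.620 FPKM in periodontitis. Tnfrsf17 had 2.35, 0.497 and 0.946 FPKM in controls and 0.307, 0.746 and 1.16 FPKM in periodontitis. In both, control 1 was highest and periodontitis 1 lowest, as with Mzb1.

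B cell genes were at the edge of what the tables list. Of 30 on the list, 22 were listed and 14 tested, 2 with a higher and 12 with a lower mean (median log2 fold change -0.20), and 0 had an unadjusted limma p under 0.05. Their summed level was 55.5 to 76.6 FPKM in controls and 46.0 to 78.8 FPKM in periodontitis. The defining surface gene Ms4a1 (CD20) was below the filter. Ms4a1 had 2.73 and 0.190 FPKM in controls 1 and 2, was listed at 0 in control 3, and had 0.126, 1.14 and 0.986 FPKM in periodontitis.

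Control 1 was the highest library for Ms4a1, as it was for Cd79a and Cd79b. Of the 14 tested genes of the list, control 1 was highest in only 3, beside 10.7% of all tested genes. The summed level of the list was 76.6 FPKM in control 1 and 78.8 FPKM in periodontitis 2. Pou2f2, the octamer-binding partner of Pou2af1, had 0.893, 0.350 and 0.352 FPKM in controls and 0.193, 0.662 and 0.463 FPKM in periodontitis. The smallest p of the list belonged to Ciita (log2 fold change -0.45), Cd37 (-0.46), Btk (-0.34) and Ebf1 (-0.25), all with a limma adjusted p of 1.0.

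Genes that recruit B cells and plasma cells or keep them alive had a median log2 fold change of -0.38, beside -0.03 over all tested genes. Of 23 on the list, 19 were listed and 14 tested, 2 with a higher and 12 with a lower mean. Without control 1, the highest library in 8 of the 14, the median was -0.14. Periodontitis 1 was the lowest library in 11 of the 14, beside 34.7% of all tested genes. Set against the control mean on the log2 scale, the list median was -0.88, 0.10 and -0.28 in periodontitis 1 to 3. Itgb7, an integrin chain of gut-homing lymphocytes, had 4.14, 4.61 and 4.27 FPKM in controls and 0.840, 3.31 and 2.65 FPKM in periodontitis 1 to 3 (log2 fold change -0.80 ± 0.32 SE, limma unadjusted p = 0.0399, adjusted p = 1.0). Tnfsf13b, the survival factor BAFF, had 2.61, 1.16 and 1.07 FPKM in controls and 0.144, 0.874 and 0.869 FPKM in periodontitis (log2 fold change -0.67 ± 0.32 SE, limma adjusted p = 1.0). These were the 2 genes of the list in which all periodontitis libraries lay below all controls, beside 3.59% of all tested genes, and periodontitis 1 was the lowest in both. Tnfsf13b passed the filter through the controls alone, the group where it was higher, so its place among the tested genes rests on them.

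For Ccl28, Tnfsf13, Cxcl12, Tgfb1, Tgfb2 and Cxcl13, of the same list, the groups overlapped. Ccl28, a chemokine that draws IgA plasma cells to mucosa, had 36.2, 36.1 and 42.8 FPKM in controls and 27.2, 44.0 and 45.1 FPKM in periodontitis (log2 fold change -0.02 ± 0.23 SE, limma adjusted p = 1.0). Tnfsf13, the survival factor APRIL, had 27.2, 21.3 and 18.3 FPKM in controls and 17.4, 23.6 and 26.4 FPKM in periodontitis. Cxcl12, a stromal chemokine, had 15.2 to 16.8 FPKM in controls and 5.22, 16.1 and 18.6 FPKM in periodontitis. Tgfb1 and Tgfb2, growth factors that act in the switch to IgA, had log2 fold changes of -0.80 and -0.48 (limma adjusted p = 1.0 for both). Cxcl13, which draws B cells into follicles and was named after its values were seen, had 74.4, 24.4 and 12.8 FPKM in controls and 7.29, 51.5 and 14.7 FPKM in periodontitis, so control 1 and periodontitis 2 were its highest libraries.

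The transport side showed no call. Of 22 genes of receptor trafficking and of other antibody receptors, 20 were tested, 12 with a higher and 8 with a lower mean (median log2 fold change 0.03), and 0 had an unadjusted limma p under 0.05. Rab3d, a small GTPase of secretory granules that acts in transcytosis of the receptor, had 63.9, 54.0 and 54.6 FPKM in controls and 46.4, 63.3 and 57.2 FPKM in periodontitis. Rab25 and Rab11a, of recycling endosomes and also named after their values were seen, had their highest levels in periodontitis 1 (300.5 and 153.7 FPKM) and their lowest in periodontitis 3 (90.8 and 57.4 FPKM), the reverse of Pigr. Fcgrt, the neonatal Fc receptor that carries IgG, had 27.8, 30.6 and 35.3 FPKM in controls and 21.2, 31.6 and 26.03 FPKM in periodontitis. Fcer1g, the signalling chain of Fc receptors on myeloid cells, was the 1 gene of the list with all periodontitis libraries (17.7 to 21.0 FPKM) below all controls (22.0 to 34.9 FPKM), 1 of 20 beside 3.59% of all tested genes, at a log2 fold change of -0.40 (limma adjusted p = 1.0). Egfr and Fcgr2b, a growth factor receptor and an inhibitory IgG receptor, had log2 fold changes of 0.29 and -0.37.

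Among receptors and factors known to induce Pigr, 17 of 20 were tested, 6 with a higher and 11 with a lower mean (median log2 fold change -0.04, and 0.06 without control 1), and 0 had an unadjusted limma p under 0.05. Myd88, the adaptor of Toll-like receptors, had 18.4, 17.8 and 15.9 FPKM in controls and 40.4, 25.5 and 14.1 FPKM in periodontitis 1 to 3. Il17rc, a subunit of the interleukin 17 receptor, had 11.4 to 12.5 FPKM in controls and 21.3, 13.1 and 10.99 FPKM in periodontitis. Both were highest in periodontitis 1, the library with the least Pigr and the highest sum of cornified epithelium genes. The part of epithelium content in these levels was not tested. Irf1, an interferon factor, and Il17ra had log2 fold changes of 0.23 and -0.16.

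Some marker lists of other immune cells were high in control 1 and low in periodontitis 1, and the summed level of the neutrophil list was not. The summed level of 13 listed T cell genes was 47.0, 29.9 and 28.2 FPKM in controls and 14.8, 46.4 and 28.0 FPKM in periodontitis 1 to 3, and control 1 was the highest library in 3 of the 10 tested and periodontitis 1 the lowest in 7. Among 15 macrophage and dendritic genes, control 1 was the highest library in 8 and periodontitis 1 the lowest in 13. Over all tested genes, control 1 was the highest library in 10.7% and periodontitis 1 the lowest in 34.7%. The 6 listed neutrophil genes summed to 90.2, 117.2 and 146.2 FPKM in controls and 214.4, 508.8 and 79.7 FPKM in periodontitis. That sum was mostly S100a8 and S100a9, at 242.4 and 255.3 FPKM in periodontitis 2. Of the 5 tested, control 1 was the highest library in 1 and periodontitis 1 the lowest in 2. Ncf1 was highest in control 1 (7.63 FPKM) and lowest in periodontitis 1 (2.35 FPKM). Cxcr2 was highest in periodontitis 1 (7.28 FPKM). The 6 listed genes of lymphoid stroma and vessels summed to 179.6, 130.1 and 139.4 FPKM in controls and 32.2, 141.8 and 78.9 FPKM in periodontitis. The part of these cells in the levels of the B cell and plasma cell genes was not tested.

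The genes most like each member over the 6 libraries were ranked by Pearson's r of log2 values, as a description, limited to genes averaging 5 FPKM or more, all of which share the library totals. Mzb1 came first for Jchain and Jchain first for Mzb1 (r = 0.99 over 6 libraries for the pair, and 0.99 or more without control 1). Without control 1 that first place was lost, with Mzb1 at rank 6 for Jchain and Jchain at rank 7 for Mzb1. The others of the first 5 for Jchain were Clec14a, Arl8a, Prrt1 and B4galt3, with r of 0.97 to 0.98, and they ranked between 14 and 126 without control 1. For Mzb1 they were Tmub1, Tmem176b, the heavy chain row ENSRNOG00000034190 and Prrt1, which ranked between 123 and 289 without control 1. For Pigr they were Wrb, Mettl21b, Cnpy3, Fdx1 and Asns, with r of 0.99 or above, and no gene of the B cell or plasma cell lists was among them.

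For Pou2af1 the first 5 were Chi3l1, Cdc42se2, Mapk3, Ubd and Sec24b, with r of 0.95 to 0.98. For Cd79a they included the chromosome 4 row AABR07060872.1, Tmed10, Nthl1 and LOC100910833. That row (98337367 to 98523473) had 994.0, 230.1 and 158.1 FPKM in controls and 201.2, 380.8 and 450.5 FPKM in periodontitis 1 to 3, with control 1 highest as for Cd79a. For Cd79b they were Zfp846, AABR07034730.2, Spata7, AABR07051551.1 and Btg3, of which AABR07034730.2 lies in the lambda chain interval of chromosome 11. Over 8955 genes and 6 libraries, high r arises easily, and without control 1 the r of the genes named for Cd79b fell to between 0.85 and 0.92.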

How the data were processed

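RNA was sequenced from 3 control and 3 periodontitis libraries on an Illumina NovaSeq instrument, per the labels' protocols. The deposited values are FPKM, per the file headers, 1 per protein-coding gene and library. FastQC, cutadapt, HISAT2 and StringTie are named without versions, per the submitters' processing notes, which also name the mouse build mm10, although identifiers and chromosomes are those of rat. No label or header gives counts, depth or use of strand, low values showed no steps of whole reads, and no counting interval was computed. No 2 libraries held identical values.

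From the FPKM, log2(FPKM + 1) was tested with limma 3.58.1 (R 4.3.3), with a mean-variance trend and group as the only term, two-sided, in the 13154 genes that reached 1 FPKM in 3 or more libraries. Benjamini-Hochberg adjustment ran over all of them, with a threshold of 0.05. The fit was tested on simulated data. Members and gene lists were chosen with earlier results of these data known. Named genes were the members, up to 4 per list by smallest p, genes tied to a member, the most abundant immunoglobulin rows and the 5 genes most like each member. A few of these are not reported here. The alternatives were a block on replicate number, fits without 1 library each, other filters, a pseudocount of 0.1, quantile normalization, rescaling without 4 gland genes and no trend.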

Additional observations from a re-analysis of the deposited data

How the results depend on the processing

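No member passed the limma threshold under any of the 13 alternatives (smallest adjusted p = 0.594, for Pigr without periodontitis 3). Over all genes, the count past the threshold moved from 0 to 3 under a replicate block (1 of them higher) and was 0 to 1 with each library left out (1 without control 1). It stayed at 0 in the other settings. Replicate numbers were not taken as pairing the libraries, and under the block 0 members were called. The correlation between like-numbered controls and periodontitis libraries was 0.09, 0.04 and 0.46, not above 0.1 in every pair. Between unlike-numbered ones it ran from -0.396 to 0.375. Leaving out 1 library gave log2 fold changes of -0.66 to 0.35 for Jchain, -0.62 to 0.36 for Pigr, -0.87 to 0.10 for Mzb1, -0.69 to 0.25 for Pou2af1, -0.12 to 0.86 for Cd79a and -0.077 to 0.91 for Cd79b. Of 75 refitted member values, 11 changed sign, all with 1 library left out, in fits with fewer libraries. With a mean of at least 5 FPKM, Cd79a, Cd79b and Pou2af1 were not tested. Depth is unknown, so its limit on these low genes could not be given. List medians and likeness without control 1 were added after the data were seen.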
